A study of Mus musculus with 36 samples.

Results

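The enzymes and transporters that take glucose to lactate, or to pyruvate inside the mitochondrion, were followed through 10 sorted cell populations of the adult mouse subependymal zone (SEZ), the neurogenic niche that lines the lateral ventricles of the brain. The set was a list of 33 gene symbols, matched by name to the rows of the table of log2 expression values. All 33 symbols were found, in 34 of 19909 rows, because the symbol Aldoa stands on 2 Ensembl genes. No measured value entered the match, but the list was chosen with earlier results of these data known. All mice were C57BL/6 and 8 weeks old, and the labels give no genotype or transgene that differs between groups. Of the 36 libraries, 28 came from cells sorted by flow cytometry straight from tissue: 4 each for qNSC, pNSC, aNSC and NPC1, and 3 each for NPC2, NB1, NB2 and the population labelled Other. The labels do not spell out these names, which in this field stand for quiescent, primed and activated neural stem cells, neural progenitors and neuroblasts, and they give no sorting antigens. The remaining 8 libraries came from SEZ neurosphere cells of passage 4, which float as spheres and were grown with the mitogens EGF and FGF. These cells were loaded with the dye DFFDA at 2 ug/ml, cultured for 4 days and sorted into DFFDA_H and DFFDA_L, 4 libraries each. Such a dye is diluted when cells divide, and the series describes the cultured pair as differing in proliferative kinetics. Fresh cells had no such culture. In any comparison of neurospheres with fresh cells, culture, mitogens, time outside the animal, the way of sorting and any library batch cannot be told apart.

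Glycolysis begins with glucose transporters and hexokinases, which bring glucose in and trap it as glucose 6-phosphate. Phosphofructokinase then takes the committed step, and the PFKFB enzymes set its activator, fructose 2,6-bisphosphate. Aldolase, triose phosphate isomerase and the enzymes of lower glycolysis carry the carbon to pyruvate. Lactate dehydrogenase exchanges pyruvate with lactate, which leaves or enters the cell through monocarboxylate transporters. Pyruvate instead reaches the mitochondrion through the MPC1 and MPC2 carrier, where pyruvate dehydrogenase makes acetyl-CoA and pyruvate carboxylase makes oxaloacetate. The PDK kinases switch pyruvate dehydrogenase off. In brain, astrocytes are known for aerobic glycolysis and for releasing lactate, and dividing progenitors are known to use glycolysis as well, while maturing neurons rely more on oxidation.

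Marker genes set qNSC, aNSC and NB2 apart, but not every pair of neighbouring labels. The 8 astroglial markers summed to 8024 to 8879 in qNSC, 6974 to 8618 in pNSC, 1189 to 2198 in aNSC and 86.9 to 90.2 in NB2, on the linear scale of the deposited values. The 6 cycling markers summed to 73.5 to 116 in qNSC, 367 to 1428 in pNSC, 3220 to 3539 in aNSC and 534 to 581 in NB2, and the 8 neuroblast markers reached 9197 to 10157 in NB2, against 180 to 293 in qNSC. The astroglial sums of qNSC and pNSC overlapped, as did those of NPC1 (251 to 497) and NPC2 (453 to 503). The cycling sums reached their highest in NPC2, at 4736 to 4898. The table does not state depth: the genes at a library's floor, its lowest value, numbered 1159 to 3932 in qNSC, 1275 to 2319 in pNSC and 362 to 1836 in the other 8 groups. They numbered 362 to 604 in DFFDA_H and 365 to 515 in DFFDA_L, fewer than in any fresh library. Whether each library came from a separate animal or culture is not given, and a p-value here speaks of the spread among the sequenced samples, which may be technical. In sorted bulk samples, fewer cells of a type and less RNA per cell cannot be told apart.

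Several rows are uncertain. The kit does not mark strand, and 16 of the 34 rows overlap an annotated gene on the opposite strand. In addition, 16 rows have another annotated gene at least 90% identical to one of their transcripts over 300 or more bases. The extreme is Gapdh, the glyceraldehyde 3-phosphate dehydrogenase gene, with 191 such genes, 181 of them pseudogenes. Ldha had 17, Pkm 9, Eno1 8, Aldoa 7, Pgk1 4 and Pgam1 3. The sources used here do not say how reads from such copies were assigned, and these rows are uncertain for that reason. Neither a copy nor an overlap was found for Pfkl, Pfkfb4, Aldoc, Eno2, Slc16a3, Pdk1, Pdk3 and Pdk4.

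Most of the pathway stood highest in qNSC. Of the 34 rows, 20 had their highest group mean in qNSC, 4 in DFFDA_L, 3 each in Other and DFFDA_H, 2 in NB1 and 1 each in aNSC and NPC1. The lowest mean lay in NB2 for 8 rows. The matching shares over all genes were not computed for these counts of group means. In all 4 qNSC libraries, 10 rows lay above every other fresh library: Gpi1, Pfkm, Pfkp, Aldoa, Gapdh, Pgk1, Pgam1, Eno1, Pdk2 and Mpc1. That was 29.4% of the rows, and 7.42% of the 17788 genes tested did the same. By the same rule, 8 rows (23.5%, against 3.57% of all genes) lay below every other fresh library in all 3 NB2 libraries: Slc2a1, Hk2, Tpi1, Gapdh, Pgk1, Pgam1, Slc16a1 and Pdk4. Per kilobase of exon, the aldolase gene Aldoc led the set in qNSC at a log2 level of 10.50 ± 0.18, followed by the lactate dehydrogenase gene Ldhb at 9.85 ± 0.05 and Aldoa at 9.24 ± 0.05 (SD, n = 4). In aNSC the leading 3 were Ldhb at 8.79 ± 0.14, the pyruvate kinase gene Pkm at 8.50 ± 0.07 and Ldha at 7.07 ± 0.09. These orders between genes carry the uncertainty of close copies given above.

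**Figure D1:**
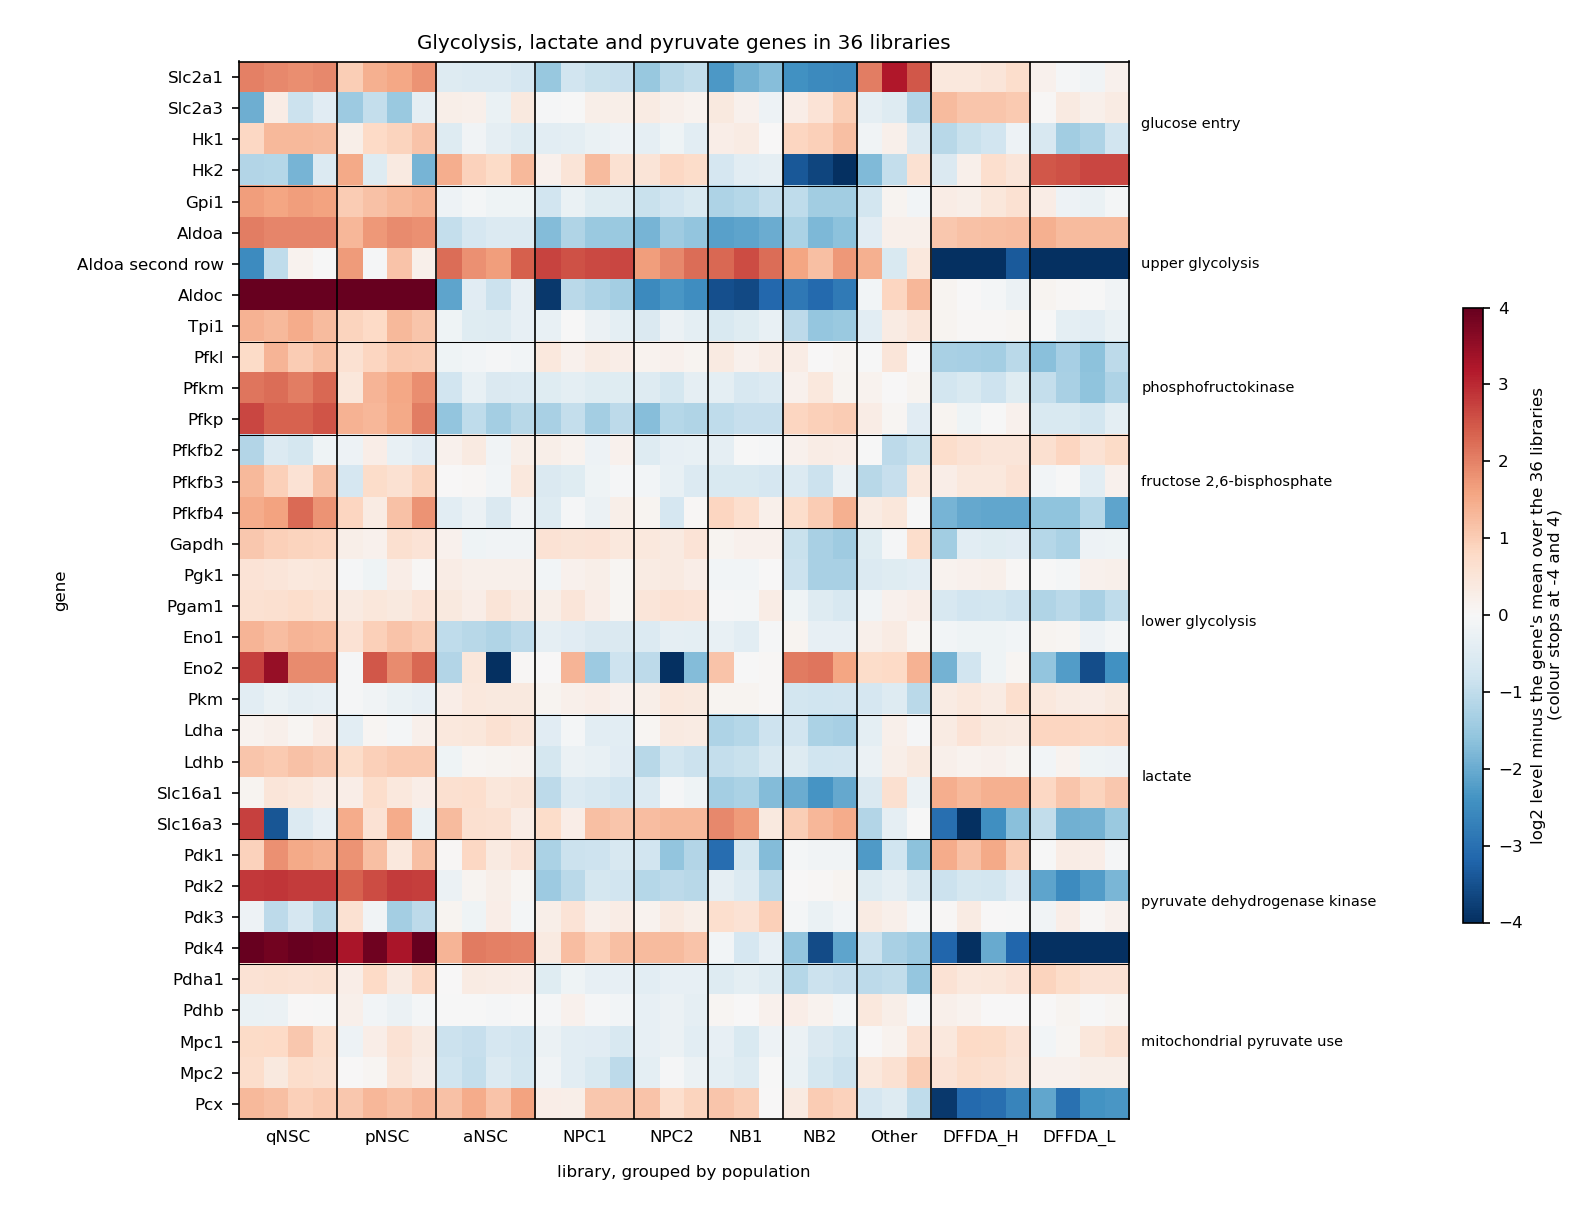
Each row is 1 of the 34 rows of the set, grouped by role, and each column is 1 library, grouped by population; colour gives the log2 level minus that row's mean over the 36 libraries, and stops at -4 and 4. The 4 qNSC and 4 pNSC columns are red through most of upper glycolysis, with 20 rows at their highest mean in qNSC, and the second Aldoa row, Pdk4 and Pcx are blue in the neurosphere columns.

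The comparison of aNSC with qNSC asked how the pathway differs between the stem cell labels at rest and in cycle. Of the 34 rows, 28 passed, 6 higher and 22 lower in aNSC (limma adjusted p under 0.05 over all genes tested). The background was high: 62.3% of all 17788 genes passed, 35.3% higher and 27.1% lower. The share of lower rows was 64.7% in the set. The median log2 change was -1.04 in the set and 0.19 over all genes, and centring on a trimmed mean of log ratios moved the second value to 0.01 and left 5 rows higher and 23 lower. In the groups' libraries 29 rows did not overlap (57.6% of all genes).

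At the entry of glucose, transporters and hexokinases split. Slc2a1, the gene of the glucose transporter GLUT1 (ENSMUSG00000028645, chromosome 4, 119108711 to 119137983), had log2 levels of 5.55, 5.52, 5.53 and 5.39 in aNSC, against 8.07, 7.99, 7.92 and 8.00 in qNSC. All 4 aNSC libraries were lower, with a log2 change of -2.50 (standard error 0.20, adjusted p 4.81e-11), a level 5.64-fold lower. The hexokinase gene Hk1 had 5.69, 6.06, 5.85 and 5.71 in aNSC, against 7.04, 7.53, 7.51 and 7.48 in qNSC (log2 change -1.56, standard error 0.17, adjusted p 9.35e-09). Hk2, the hexokinase known to be induced in growing cells (ENSMUSG00000000628, chromosome 6, 82725025 to 82774454), went the opposite way, with 3.60, 3.06, 2.90 and 3.44 in aNSC, against 0.97, 1.01, 0.29 and 1.61 in qNSC. Its lowest aNSC library lay above its highest qNSC library (log2 change 2.28, standard error 0.52, adjusted p 0.000456). Slc2a3, which encodes the neuronal glucose transporter GLUT3, had 4.62, 4.59, 4.12 and 4.78 in aNSC, against 2.43, 4.69, 3.52 and 3.94 in qNSC, and qNSC replicate 2 lay inside the aNSC range. Its log2 change of 0.89 passed (adjusted p 0.0199), but not without qNSC replicate 1 (0.137) or aNSC replicate 4 (0.055), with the 2 groups fitted alone (0.0824) or with centring on log ratios (0.0653).

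Among the isomerase and aldolase genes, every row but 1 fell. Aldoc, the brain aldolase and a marker of astrocytes (ENSMUSG00000017390, chromosome 11, 78322968 to 78327781), had 5.38, 7.06, 6.65 and 7.17 in aNSC, against 12.30, 12.12, 11.87 and 11.99 in qNSC. No library came near the other group, and its log2 change of -5.51 (standard error 0.42, adjusted p 1.91e-11) was the largest of the set, a 45.5-fold lower level. Aldoa, the aldolase of muscle and most tissues (ENSMUSG00000030695, chromosome 7, 126795234 to 126800751), had 7.17, 7.46, 7.59 and 7.59 in aNSC, against 10.18, 10.10, 10.08 and 10.08 in qNSC (log2 change -2.66, standard error 0.16, adjusted p 1.32e-13). Gpi1, glucose 6-phosphate isomerase, had 6.79, 6.89, 6.81 and 6.81 in aNSC, against 8.66, 8.57, 8.67 and 8.59 in qNSC (log2 change -1.80, standard error 0.14, adjusted p 2.9e-11). The triose phosphate isomerase gene Tpi1 had 6.76, 6.46, 6.42 and 6.62 in aNSC, against 8.33, 8.23, 8.43 and 8.19 in qNSC (log2 change -1.73, standard error 0.16, adjusted p 5.75e-10). The groups stood apart for each of these 4 genes. The other gene named Aldoa (ENSMUSG00000114515, chromosome 7, 126800790 to 126809108), a short model that ends just upstream of the first on the same strand, had 2.56, 2.17, 2.01 and 2.71 in aNSC, against -2.18, -0.69, 0.47 and 0.31 in qNSC. It was higher in every aNSC library (log2 change 2.88, standard error 0.48, adjusted p 9.36e-06), though qNSC replicate 1 was at its floor. With a pseudocount of 1 its log2 change was 1.77.

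The committed step fell as well, in all 3 phosphofructokinase genes. Pfkp, the platelet-type subunit (ENSMUSG00000021196, chromosome 13, 6579768 to 6648777), had 3.83, 4.40, 4.07 and 4.31 in aNSC, against 8.08, 7.77, 7.79 and 7.92 in qNSC. That is a log2 change of -3.74 (standard error 0.18, adjusted p 3.43e-15), or 13.4-fold lower. The muscle-type gene Pfkm had 5.34, 5.81, 5.53 and 5.57 in aNSC, against 8.23, 8.33, 8.16 and 8.39 in qNSC (log2 change -2.72, standard error 0.18, adjusted p 1.49e-12). The liver-type gene Pfkl had 5.98, 6.01, 6.10 and 6.03 in aNSC, against 6.91, 7.50, 7.15 and 7.32 in qNSC (log2 change -1.19, standard error 0.13, adjusted p 1.05e-08). No aNSC library reached the qNSC range in any of the 3. Among the enzymes that make and break fructose 2,6-bisphosphate, Pfkfb4 had 2.95, 3.13, 2.81 and 3.23 in aNSC, against 4.85, 4.97, 5.63 and 5.18 in qNSC (log2 change -2.13, standard error 0.27, adjusted p 1.36e-07). Pfkfb3, the most kinase-active of them, had 4.78, 4.82, 4.65 and 5.19 in aNSC, against 6.07, 5.72, 5.34 and 5.93 in qNSC (log2 change -0.90, standard error 0.29, adjusted p 0.0098). Pfkfb2, the heart-type enzyme, was higher, with 5.74, 5.93, 5.41 and 5.79 in aNSC, against 4.40, 5.00, 4.85 and 5.37 in qNSC (log2 change 0.81, standard error 0.21, adjusted p 0.00137).

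Lower glycolysis was mixed. The enolase gene Eno1 (ENSMUSG00000063524, chromosome 4, 150236721 to 150248879) had 7.23, 7.17, 7.05 and 7.22 in aNSC, against 9.63, 9.50, 9.62 and 9.57 in qNSC, a clear gap (log2 change -2.41, standard error 0.11, adjusted p 3.43e-15). The neuronal enolase gene Eno2 had -0.27, 1.35, -3.46 and 0.96 in aNSC, against 3.63, 4.40, 2.80 and 2.80 in qNSC (log2 change -3.76, standard error 0.87, adjusted p 0.000507). Its aNSC libraries were scattered, and without aNSC replicate 3 the log2 change was -2.73 (adjusted p 0.00396). Gapdh had 5.50, 5.16, 5.18 and 5.16 in aNSC, against 6.39, 6.28, 6.21 and 6.18 in qNSC (log2 change -1.01, standard error 0.17, adjusted p 1.64e-05), subject to the copies named above. Pgk1, phosphoglycerate kinase, passed narrowly at -0.25 (adjusted p 0.0454), and its call ended in 11 of the alternatives, at up to 0.0921 without qNSC replicate 1. Phosphoglycerate mutase Pgam1 did not pass (-0.26, adjusted p 0.0643). Pkm, the pyruvate kinase of the last step, was higher, with 9.77, 9.92, 9.90 and 9.90 in aNSC, against 9.09, 9.25, 9.15 and 9.16 in qNSC (log2 change 0.71, standard error 0.09, adjusted p 3.34e-07).

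At lactate, Ldhb, the heart-type lactate dehydrogenase subunit, had 8.96, 9.22, 9.24 and 9.27 in aNSC, against 10.25, 10.18, 10.31 and 10.21 in qNSC (log2 change -1.06, standard error 0.13, adjusted p 7.11e-08). Ldha, the muscle-type subunit (ENSMUSG00000063229, chromosome 7, 46841475 to 46855627), had 7.93, 7.94, 8.11 and 7.97 in aNSC, against 7.63, 7.70, 7.57 and 7.77 in qNSC. Its libraries did not overlap between the groups, but its log2 change of 0.32 missed the threshold (adjusted p 0.0562, and 0.00346 to 0.415 over the alternatives, 3 of which it passed). The lactate transporter genes Slc16a1 (MCT1) and Slc16a3 (MCT4) did not pass, at 0.24 (adjusted p 0.288) and 1.09 (adjusted p 0.2). Slc16a3 had the widest spread within a group of all 34 rows, with 3.15, -2.99, -0.14 and 0.10 in qNSC.

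Of the PDK kinases, 3 fell and 1 rose. Pdk2 (ENSMUSG00000038967, chromosome 11, 95026258 to 95041354) had 5.39, 5.73, 5.85 and 5.68 in aNSC, against 8.45, 8.48, 8.41 and 8.39 in qNSC (log2 change -2.77, standard error 0.15, adjusted p 5.26e-14), a 6.84-fold lower level. Pdk4, the kinase induced by fasting and fat use (ENSMUSG00000019577, chromosome 6, 5483351 to 5496309), had 4.39, 5.10, 5.05 and 5.02 in aNSC, against 7.06, 6.89, 7.06 and 6.95 in qNSC (log2 change -2.1, standard error 0.30, adjusted p 8.68e-07). Both genes had a wide gap between the groups. Pdk1, a known target of the hypoxia-inducible factors, changed by -0.98 (adjusted p 0.0262), but missed the threshold once qNSC replicate 2 (0.078) or 3 (0.0507) or aNSC replicate 1 (0.0804) or 3 (0.0519) was left out. Pdk3 was higher by 0.80 (adjusted p 0.0149; 0.0533 without qNSC replicate 4). Inside the mitochondrion, the carrier genes fell together. Mpc1 had 5.17, 5.13, 5.36 and 5.28 in aNSC, against 6.81, 6.84, 7.13 and 6.74 in qNSC (log2 change -1.65, standard error 0.16, adjusted p 1.24e-09). Mpc2 had 5.57, 5.40, 5.81 and 5.63 in aNSC, against 7.07, 6.75, 7.07 and 7.01 in qNSC (log2 change -1.37, standard error 0.18, adjusted p 1.8e-07). The pyruvate dehydrogenase subunit gene Pdha1 changed by -0.37 (adjusted p 0.0151; 0.0666 without aNSC replicate 1), while Pdhb (0.10, adjusted p 0.439) and the pyruvate carboxylase gene Pcx (0.23, adjusted p 0.364) did not pass.

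In all, of the 28 calls between aNSC and qNSC, 23 held in every alternative that was run, and the 5 that did not are Slc2a3, Pgk1, Pdk1, Pdk3 and Pdha1, given above. Sums of cell type markers moved too: the 8 astroglial markers, used above to set qNSC apart, summed to 1189 to 2198 in aNSC and 8024 to 8879 in qNSC. The 6 ependymal markers summed to 13 to 22 in aNSC and 139.7 to 160.2 in qNSC, the 5 mural markers found of 6 listed to 1.84 to 5.84 in aNSC and 119.9 to 162 in qNSC, and the 8 oligodendrocyte-lineage markers to 209.5 to 263.4 in aNSC and 434.1 to 663.3 in qNSC. None of these markers was at the floor throughout either group. Their part in the differences was not tested.

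**Figure D2:**
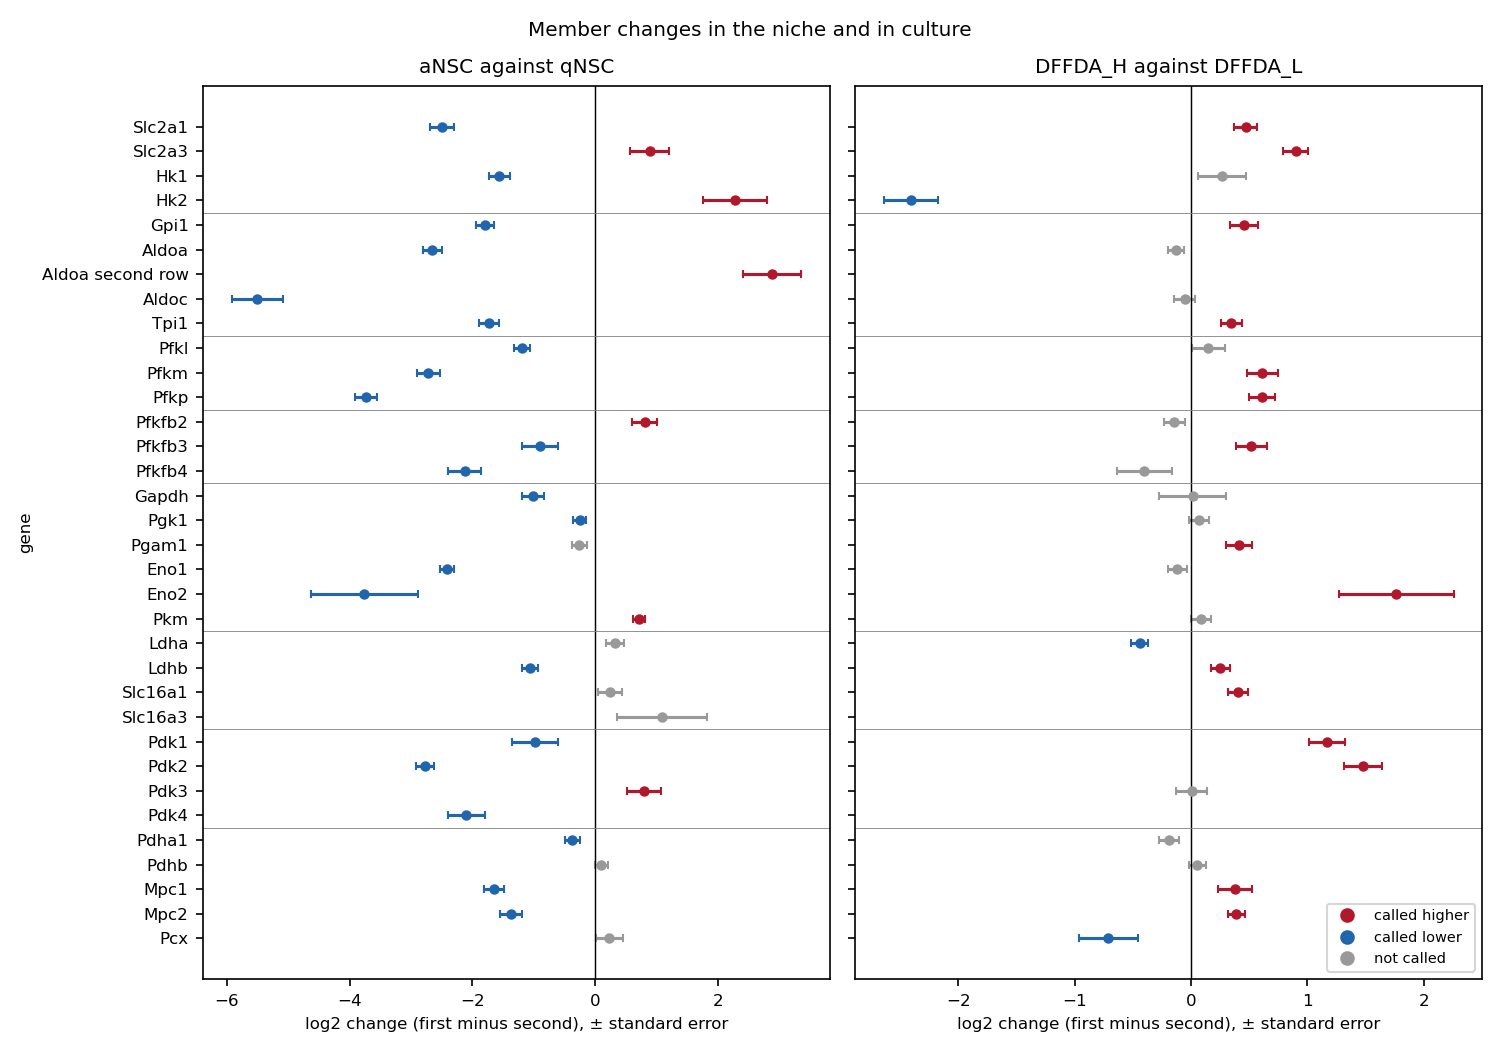
Points are the log2 change of each of the 34 rows in aNSC minus qNSC (left) and of the 31 rows tested in DFFDA_H minus DFFDA_L (right), with bars of 1 standard error; red and blue mark calls at an adjusted p under 0.05 and grey marks rows that did not pass. On the left 22 rows are blue and 6 red, with Aldoc farthest out at -5.51; on the right 15 are red and 3 blue, with Hk2 farthest out at -2.41.

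The upstream sequences of these genes were read because the hexokinase isoforms moved in opposite directions. Of the 33 symbols, 32 had a promoter window in RefSeq (GRCm38.p6), and the 250 bases before the start site nearest the GENCODE principal start were searched for the core letters of the hypoxia response element, ACGTG or GCGTG, on both strands. These 2 motifs can share bases where they overlap on opposite strands. Of the 32 windows, 28 (87.5%) held at least 1 match, and 12679 of all 32851 windows (38.6%) did. The 2 sets are unlike: each member gave 1 window, chosen by its principal start, while all windows include several for some genes. The members' windows also held more C and G, with a median of 62.6%, against 52.4% over all windows, and 17 of the 32 overlapped annotated exon bases. Windows of Gpi1, Tpi1, Eno2 and Pkm held no match. Printed here are the windows of 3 members, 1 each from the isoform groups of hexokinase, aldolase and pyruvate dehydrogenase kinase, chosen among windows free of annotated exons (that of Pdk1 was also free of them), 5′ to 3′ in the direction of the gene, with matches in capitals.
Hk2, chr6:82774455-82774704, minus strand: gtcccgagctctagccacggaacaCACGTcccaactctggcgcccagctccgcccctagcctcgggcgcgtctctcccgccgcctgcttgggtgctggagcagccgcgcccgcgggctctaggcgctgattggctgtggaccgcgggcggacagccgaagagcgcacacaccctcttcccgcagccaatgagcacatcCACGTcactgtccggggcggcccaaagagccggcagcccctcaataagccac
Aldoa, chr7:126799255-126799504, minus strand: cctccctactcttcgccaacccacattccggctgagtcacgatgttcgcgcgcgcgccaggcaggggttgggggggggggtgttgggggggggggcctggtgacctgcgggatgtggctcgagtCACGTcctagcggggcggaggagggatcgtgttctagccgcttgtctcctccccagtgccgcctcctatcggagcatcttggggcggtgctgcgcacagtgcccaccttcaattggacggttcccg
Pdk2, chr11:95041372-95041621, minus strand: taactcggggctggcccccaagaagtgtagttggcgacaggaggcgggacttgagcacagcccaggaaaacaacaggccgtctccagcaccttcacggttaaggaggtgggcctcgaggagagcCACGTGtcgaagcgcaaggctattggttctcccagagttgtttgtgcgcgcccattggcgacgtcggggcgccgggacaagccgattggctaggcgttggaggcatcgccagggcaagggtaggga
Hk2, which rose in aNSC, and Aldoa and Pdk2, which fell, all held such letters. The window of Hk1, which fell, held 3 matches, against 2 for Hk2, so a match did not set the hexokinase pair apart. Of the Hk1 window, 186 bases were annotated exon. A match describes these bases and no binding was measured.

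The firmest difference of pNSC from qNSC lay at the committed step. Between pNSC and qNSC, 9 rows passed, 1 higher and 8 lower in pNSC (26.5% of the rows, against 22.3% of all genes, a share near the background). By direction, 14.2% of all genes were higher and 8.06% lower in pNSC, and 11 rows of the set did not overlap between the libraries, against 20.2% of all genes. Pfkp, at 6.81, 6.74, 6.92 and 7.47 in pNSC, against 8.08, 7.77, 7.79 and 7.92 in qNSC, fell by 0.91 on the log2 scale (standard error 0.18, adjusted p 0.00056), the 1 call that held in every alternative. The Pfkp row overlaps the gene Pitrm1 on the opposite strand, which the kit does not tell apart. Pfkm (-0.87), Pfkfb4 (-0.75), Mpc1 (-0.59), Gapdh (-0.55), Pgk1 (-0.45), Gpi1 (-0.41) and Eno1 (-0.39) were also lower, and the second Aldoa row was higher, with 2.03, 0.27, 1.45 and 0.52 in pNSC, against -2.18, -0.69, 0.47 and 0.31 in qNSC (1.59, adjusted p 0.0183; 0.82 with a pseudocount of 1, 0.87 and 0.0547 with values below 0 set to 0, and 0.86 and 0.242 with library weights). Aldoc did not pass, with 11.67, 11.87, 11.87 and 12.12 in pNSC (-0.19, adjusted p 0.778), nor did Slc2a1, with 7.07, 7.49, 7.62 and 7.86 (-0.48, adjusted p 0.0841). Hk2 had the widest spread of the set in pNSC, with 3.67, 1.64, 2.51 and 0.29 there. A total of 3 rows passed without pNSC replicate 1 and 2 with the 2 groups fitted alone.

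Between aNSC and pNSC, of the 34 rows 23 passed, 4 higher and 19 lower in aNSC (67.6%, against 48.3% of all genes). By direction, 28.4% of all genes were higher and 19.9% lower in aNSC, and 19 rows of the set did not overlap between the libraries, against 46.0% of all genes. The median log2 change was -0.82 in the set and 0.22 over all genes. Log-ratio centring moved the share of higher calls among all genes to 47.4%, against 58.8%, the median to 0.04 and the set's split to 3 higher and 19 lower. Among the rows that fell were Aldoc (-5.32, adjusted p 1.33e-10), Pfkp (-2.83, 1.76e-12), Pdk2 (-2.57, 7.69e-13), Aldoa (-2.38, 4.6e-12), Eno1 (-2.02, 2.92e-13) and Slc2a1 (-2.01, 8.02e-09). Ldha rose, with 7.93, 7.94, 8.11 and 7.97 in aNSC, against 7.08, 7.56, 7.43 and 7.68 in pNSC (log2 change 0.55, standard error 0.15, adjusted p 0.00281). Pkm (0.57) and Slc2a3 (1.22) rose too. Of these calls 19 held in every alternative. Eno2 did not without aNSC replicate 3 (adjusted p 0.0514, log2 change -1.88; -1.74 with a pseudocount of 1), Gapdh, Pdha1 and the second Aldoa row without several single libraries.

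The values behind these calls show how far the labels stood apart. In glucose entry, Slc2a3 had 4.62, 4.59, 4.12 and 4.78 in aNSC, against 2.92, 3.42, 2.89 and 4.02 in pNSC (log2 change 1.22, standard error 0.32, adjusted p 0.00307), and Hk1 had 5.69, 6.06, 5.85 and 5.71 in aNSC, against 6.45, 7.02, 7.12 and 7.36 in pNSC (log2 change -1.16, standard error 0.17, adjusted p 2.89e-06). The transporter transcript was higher and that of the hexokinase lower, each without overlap. In upper glycolysis, Gpi1 had 6.79, 6.89, 6.81 and 6.81 in aNSC and 8.00, 8.17, 8.28 and 8.38 in pNSC, Aldoa had 7.17, 7.46, 7.59 and 7.59 in aNSC and 9.45, 9.87, 10.02 and 9.98 in pNSC, and Tpi1 had 6.76, 6.46, 6.42 and 6.62 in aNSC and 7.82, 7.74, 8.24 and 8.04 in pNSC. The log2 change was -1.38 for Gpi1 and -1.39 for Tpi1. At the committed step, Pfkm had 5.34, 5.81, 5.53 and 5.57 in aNSC, against 6.56, 7.46, 7.65 and 7.97 in pNSC (-1.85), and Pfkfb4 had 2.95, 3.13, 2.81 and 3.23 in aNSC, against 4.22, 3.70, 4.54 and 5.17 in pNSC (-1.38). In pNSC, replicate 1 was the lowest for Pfkm and replicate 2 for Pfkfb4. Eno1 had 7.23, 7.17, 7.05 and 7.22 in aNSC, against 8.85, 9.22, 9.39 and 9.29 in pNSC, with a gap of over 1 between the groups, and Eno2, whose libraries overlapped, had -0.27, 1.35, -3.46 and 0.96 in aNSC, against 0.85, 3.39, 2.80 and 3.21 in pNSC (-2.92). Of the kinases, Pdk2 had 5.39, 5.73, 5.85 and 5.68 in aNSC, against 7.97, 8.21, 8.39 and 8.37 in pNSC, and Pdk4 had 4.39, 5.10, 5.05 and 5.02 in aNSC, against 6.29, 6.91, 6.30 and 7.05 in pNSC (-1.75). Mpc1 had 5.17, 5.13, 5.36 and 5.28 in aNSC, against 5.84, 6.30, 6.62 and 6.39 in pNSC (-1.05).

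**Figure D3:**
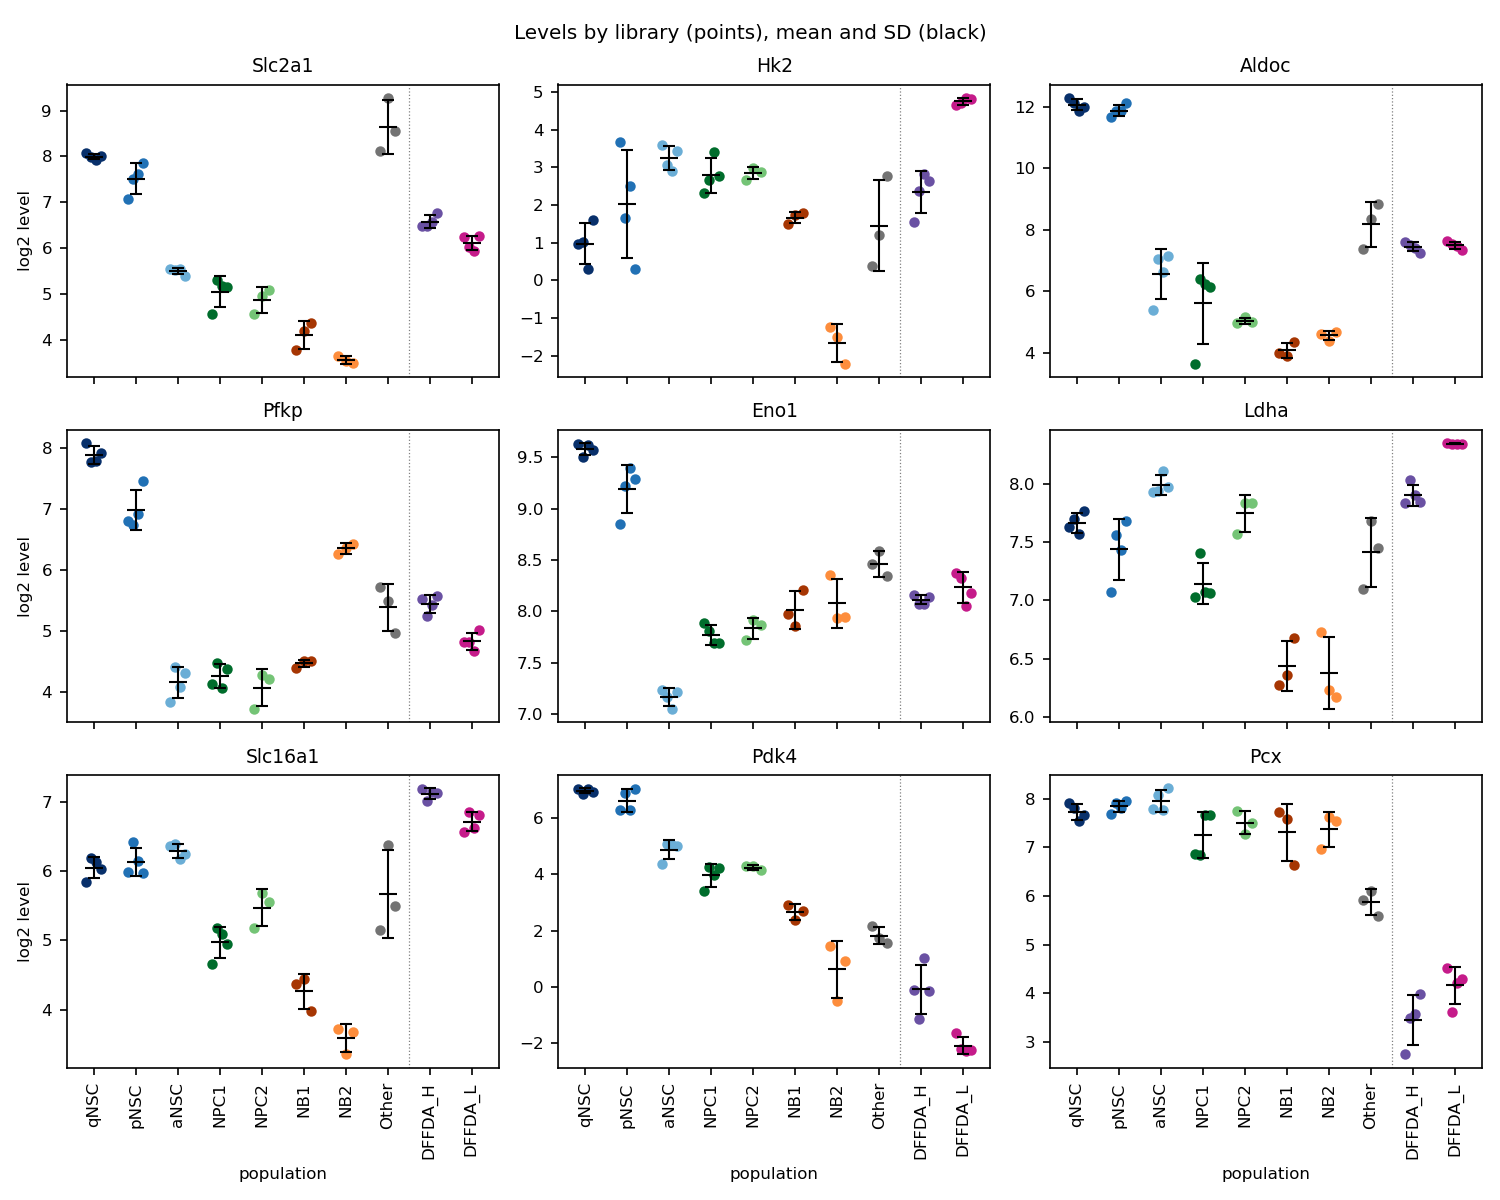
Each panel shows the log2 level of 1 gene in every library (points) with the mean and SD of each population in black; fresh populations stand left of the dotted line and neurospheres right of it. Slc2a1, Aldoc and Pdk4 are highest at the left among the stem cell labels, Slc2a1 peaks in Other at 8.11 to 9.28, Hk2 is lowest in NB2 at -2.21 to -1.24, and Pcx is lowest in the neurospheres at 2.74 to 4.52.

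In NPC1, Slc16a1 and Ldha of the lactate branch and the kinase gene Pdk2 were among those that fell. Between NPC1 and aNSC 12 rows passed, 3 higher and 9 lower in NPC1 (35.3%, against 12.7% of all genes). Split by direction, 6.24% of all genes were higher and 6.48% lower in NPC1, and 17 rows of the set did not overlap between the libraries, against 29.8% of all genes. Slc16a1, the gene of the lactate transporter MCT1 (ENSMUSG00000032902, chromosome 3, 104638668 to 104658462), had 4.67, 5.18, 5.10 and 4.95 in NPC1, against 6.36, 6.40, 6.18 and 6.25 in aNSC (log2 change -1.32, standard error 0.19, adjusted p 4.36e-05). Pdk2 had 4.17, 4.53, 4.90 and 4.84 in NPC1 (log2 change -1.05, standard error 0.15, adjusted p 3.88e-05), and its aNSC values lay above all of these. Pdk1 had 2.19, 2.58, 2.61 and 2.80 in NPC1, against 3.48, 4.28, 3.81 and 4.00 in aNSC (log2 change -1.34, standard error 0.38, adjusted p 0.0178; 0.0674 without aNSC replicate 2 and 0.0674 without NPC1 replicate 1). Ldha, with 7.03, 7.40, 7.07 and 7.06 in NPC1, changed by -0.85 (adjusted p 0.000254). Aldoa (-0.79), Pdha1 (-0.56), Pdk4 (-0.92), Pcx (-0.70) and Ldhb (-0.45) also passed lower. The calls of Pdk4 (adjusted p 0.0725 to 0.167) and Ldhb (0.0579 to 0.107) ended without any 1 of several libraries, as did that of Pcx (up to 0.136), all farthest without NPC1 replicate 1, and Pdk3 did not pass (0.29, adjusted p 0.571). Eno1 (0.60, adjusted p 0.000759), Gapdh (0.58, 0.0273) and Pfkl (0.41, 0.0351) passed higher. The calls of Gapdh and Pfkl ended without any 1 of several libraries. The adjusted p reached 0.0779 for Gapdh without aNSC replicate 2 and 0.111 for Pfkl without NPC1 replicate 1. Of the 12 calls 6 held in every alternative, and 6 or 7 rows passed without aNSC replicate 2 (6), aNSC replicate 4 (7) or NPC1 replicate 1 (6).

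Between NPC2 and NPC1, by limma 0 of 34 rows passed (1.34% of all genes, 0.202% higher and 1.14% lower in NPC2), 10 rows did not overlap (18.4% of all genes), and 7 rows had an unadjusted p under 0.05. Ldha came closest, with 7.57, 7.84 and 7.83 in NPC2, against 7.03, 7.40, 7.07 and 7.06 in NPC1 (log2 change 0.60, standard error 0.16, adjusted p 0.0508), and 1 to 6 rows passed under 8 of the alternatives. Between NB1 and NPC2, 5 rows passed, all lower in NB1 (14.7%, against 7.67% of all genes). By direction, 3.78% of all genes were higher and 3.88% lower in NB1, and 21 rows of the set did not overlap between the libraries, against 35.1% of all genes. Ldha had 6.27, 6.36 and 6.68 in NB1, against 7.57, 7.84 and 7.83 in NPC2 (log2 change -1.31, standard error 0.17, adjusted p 1.07e-05). Slc16a1 had 4.37, 4.45 and 3.98 in NB1, against 5.18, 5.69 and 5.55 in NPC2 (log2 change -1.21, standard error 0.23, adjusted p 0.000902). Pdk4 had 2.91, 2.36 and 2.69 in NB1, against 4.30, 4.29 and 4.16 in NPC2 (log2 change -1.59, standard error 0.34, adjusted p 0.00358). These 3 calls, of the lactate branch and of a PDK kinase, held in every alternative. Slc2a1 (-0.76, adjusted p 0.0439) and Pgam1 (-0.48, 0.0321) were lost without several single libraries, and 3 rows passed without NPC2 replicate 2 or 3 or NB1 replicate 1 or 2. The count was 11 with the 2 groups fitted alone and 18 with library weights.

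Between NB2 and NB1, 16 rows passed, 6 higher and 10 lower in NB2 (47.1%, against 24.6% of all genes). Split by direction, 10.4% of all genes were higher and 14.2% lower in NB2, and 21 rows of the set did not overlap between the libraries, against 50.2% of all genes. Hk2 had -1.24, -1.52 and -2.21 in NB2, against 1.49, 1.72 and 1.78 in NB1 (log2 change -3.32, standard error 0.60, adjusted p 0.000176), and with values below 0 set to 0 its log2 change was -1.67. Pdk4 had 1.45, -0.53 and 0.93 in NB2, against 2.91, 2.36 and 2.69 in NB1 (log2 change -2.04, standard error 0.34, adjusted p 7.33e-05). Gapdh (-1.36, adjusted p 1.58e-05) and Pgk1 (-1.09, 4.89e-07) fell, with Gapdh at 4.42, 4.03 and 3.88 in NB2, against 5.43, 5.49 and 5.50 in NB1 and Pgk1 at 5.54, 5.11 and 5.11 in NB2, against 6.30, 6.31 and 6.43 in NB1. For these 4 genes every NB2 library lay below every NB1 library. Pfkp rose, with 6.27, 6.36 and 6.43 in NB2, against 4.39, 4.50 and 4.51 in NB1 (log2 change 1.89, standard error 0.20, adjusted p 1.95e-07). Pdk1 was higher as well, with 3.36, 3.30 and 3.31 in NB2, against 0.41, 2.76 and 1.71 in NB1 (1.70, adjusted p 0.00515), but without NB1 replicate 1 its log2 change was 1.09 (adjusted p 0.0657). Hk1 (0.80), Pfkm (0.76), Pdk2 (0.72) and Aldoa (0.53) passed higher, and Tpi1 (-0.89), Pdk3 (-0.88), Pkm (-0.85), Slc16a1 (-0.68), Pgam1 (-0.51) and Pdha1 (-0.50) lower. Of the 16 calls 9 held in every alternative. The other 7 were Aldoa, Pfkm, Pdk1, Pdk3, Slc16a1, Pgam1 and Pdha1.

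Across the whole interval, NB2 against aNSC, 22 rows passed, 6 higher and 16 lower in NB2 (64.7%, against 50.8% of all genes). By direction, 23.6% of all genes were higher and 27.1% lower in NB2, and 25 rows of the set did not overlap between the libraries, against 64.2% of all genes. The median log2 change was -0.58 in the set and -0.05 over all genes. The largest falls were those of Hk2 (log2 change -4.91, standard error 0.56, adjusted p 5.72e-08; -3.25 with values below 0 set to 0 and -2.99 with a pseudocount of 1), Pdk4 (log2 change -4.28, standard error 0.32, adjusted p 3.24e-11; -3.54 with the pseudocount, by which it fell more than Hk2) and Slc16a1, with 3.73, 3.36 and 3.68 in NB2 (log2 change -2.71, standard error 0.21, adjusted p 6.55e-11). Aldoc, with 4.63, 4.40 and 4.69 in NB2, changed by -1.99 (adjusted p 0.00066), and Slc2a1, with 3.64, 3.52 and 3.49, by -1.95 (3.72e-08). Ldha, with 6.73, 6.23 and 6.17, changed by -1.61 (3.61e-09) and did not overlap with aNSC. Pgk1 (-1.38), Pdha1 (-1.21), Gapdh (-1.14), Pkm (-1.13) and Gpi1 (-1.10) fell by over 1 as well. Pgk1 had 5.54, 5.11 and 5.11 in NB2 and 6.71, 6.61, 6.61 and 6.61 in aNSC, Pdha1 had 6.42, 6.70 and 6.64 in NB2 and 7.58, 7.91, 7.86 and 7.84 in aNSC, Pkm had 8.77, 8.71 and 8.75 in NB2 and Gpi1 5.98, 5.59 and 5.60 in NB2. None of these 4 genes overlapped between the groups. Among the 6 rows that were higher, Pfkp (log2 change 2.2, standard error 0.19, adjusted p 4.66e-10), Hk1, with 7.07, 7.18 and 7.42 in NB2 (log2 change 1.39, standard error 0.18, adjusted p 4.52e-07), and Pfkfb4, with 4.09, 4.40 and 4.79 (log2 change 1.4, standard error 0.29, adjusted p 0.000239), rose most beside Eno2. Eno1 (0.91) and Pfkm (0.77) rose less, and Eno2, with 2.99, 3.06 and 2.49 in NB2, by 3.20 (adjusted p 0.00578; 2.17 and 0.0344 without aNSC replicate 3). The NB2 calls held in every alternative except that of Pcx (-0.59, adjusted p 0.0378; 0.231 without NB2 replicate 1, 0.102 without aNSC replicate 4 and 0.0802 without aNSC replicate 2).

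An isoform ratio within a library does not change when that library is rescaled by 1 factor. The deposited values, however, had nearly the same distribution in every library, with the same maximum of 13.26. Scaling that fixes the distribution can itself move a ratio. For 8 pairs of isoforms, the log2 ratio was compared by an exact two-sided permutation test over the libraries, in 4 comparisons. The smallest p possible is 0.0286 for 4 libraries against 4 and 0.0571 for 3 against 4. None of the 32 tests passed after Benjamini-Hochberg adjustment over the 32, where the lowest value was 0.0571. In aNSC against qNSC, 6 of 8 ratios did not overlap. Of single genes 57.6% did not overlap there, and no share over ratios of other gene pairs was computed. Per kilobase, Aldoc stood above Aldoa in every qNSC library and below it in every aNSC library, and the log2 ratio Aldoa/Aldoc was 1.79, 0.40, 0.95 and 0.42 in aNSC, against -2.12, -2.03, -1.79 and -1.90 in qNSC (difference 2.85, exact p 0.0286). Aldoa has 7 close copies and none was found for Aldoc, so their order within a library carries the uncertainty given above. Hk2/Hk1 was -2.09, -3.00, -2.95 and -2.27 in aNSC, against -6.08, -6.51, -7.22 and -5.87 in qNSC (3.84, exact p 0.0286). Slc2a3/Slc2a1 was -0.93, -0.93, -1.41 and -0.61 in aNSC, against -5.64, -3.30, -4.40 and -4.06 in qNSC (3.38, exact p 0.0286). In these pairs the balance lay toward Aldoa, Hk2 and Slc2a3 in aNSC, although Hk1 and Slc2a1 remained the more abundant per kilobase. Ldha/Ldhb was -1.03, -1.28, -1.13 and -1.3 in aNSC, against -2.61, -2.48, -2.74 and -2.44 in qNSC (1.39, exact p 0.0286). Pfkp/Pfkm (-1.02, exact p 0.0286) and Pfkfb3/Pfkfb2 (-1.71, exact p 0.0286) were lower in aNSC. Eno2/Eno1 (exact p 0.314) and Slc16a3/Slc16a1 (0.6) overlapped.

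In NB2 against aNSC all 8 ratios stood apart, each at the smallest possible exact p of 0.0571. Of single genes 64.2% also stood apart in that comparison. Slc2a3/Slc2a1 was 1.00, 1.39 and 1.86 in NB2, so that per kilobase Slc2a3 exceeded Slc2a1 in all 3 NB2 libraries, and Hk2/Hk1 was -8.31, -8.70 and -9.63. The differences were 2.38 and -6.30. Slc16a3/Slc16a1 was higher by 3.27, Eno2/Eno1 by 2.29, Pfkp/Pfkm by 1.43 and Aldoa/Aldoc by 1.12, while Ldha/Ldhb (-0.89) and Pfkfb3/Pfkfb2 (-0.73) were lower. Along the fresh populations Ldha/Ldhb was highest in NPC2, at -0.48, -0.56 and -0.45. Per kilobase the value of Ldhb exceeded that of Ldha in all 36 libraries. Ldha has 17 close copies and Ldhb 1, so this order is uncertain for the reason given above.

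**Figure D4:**
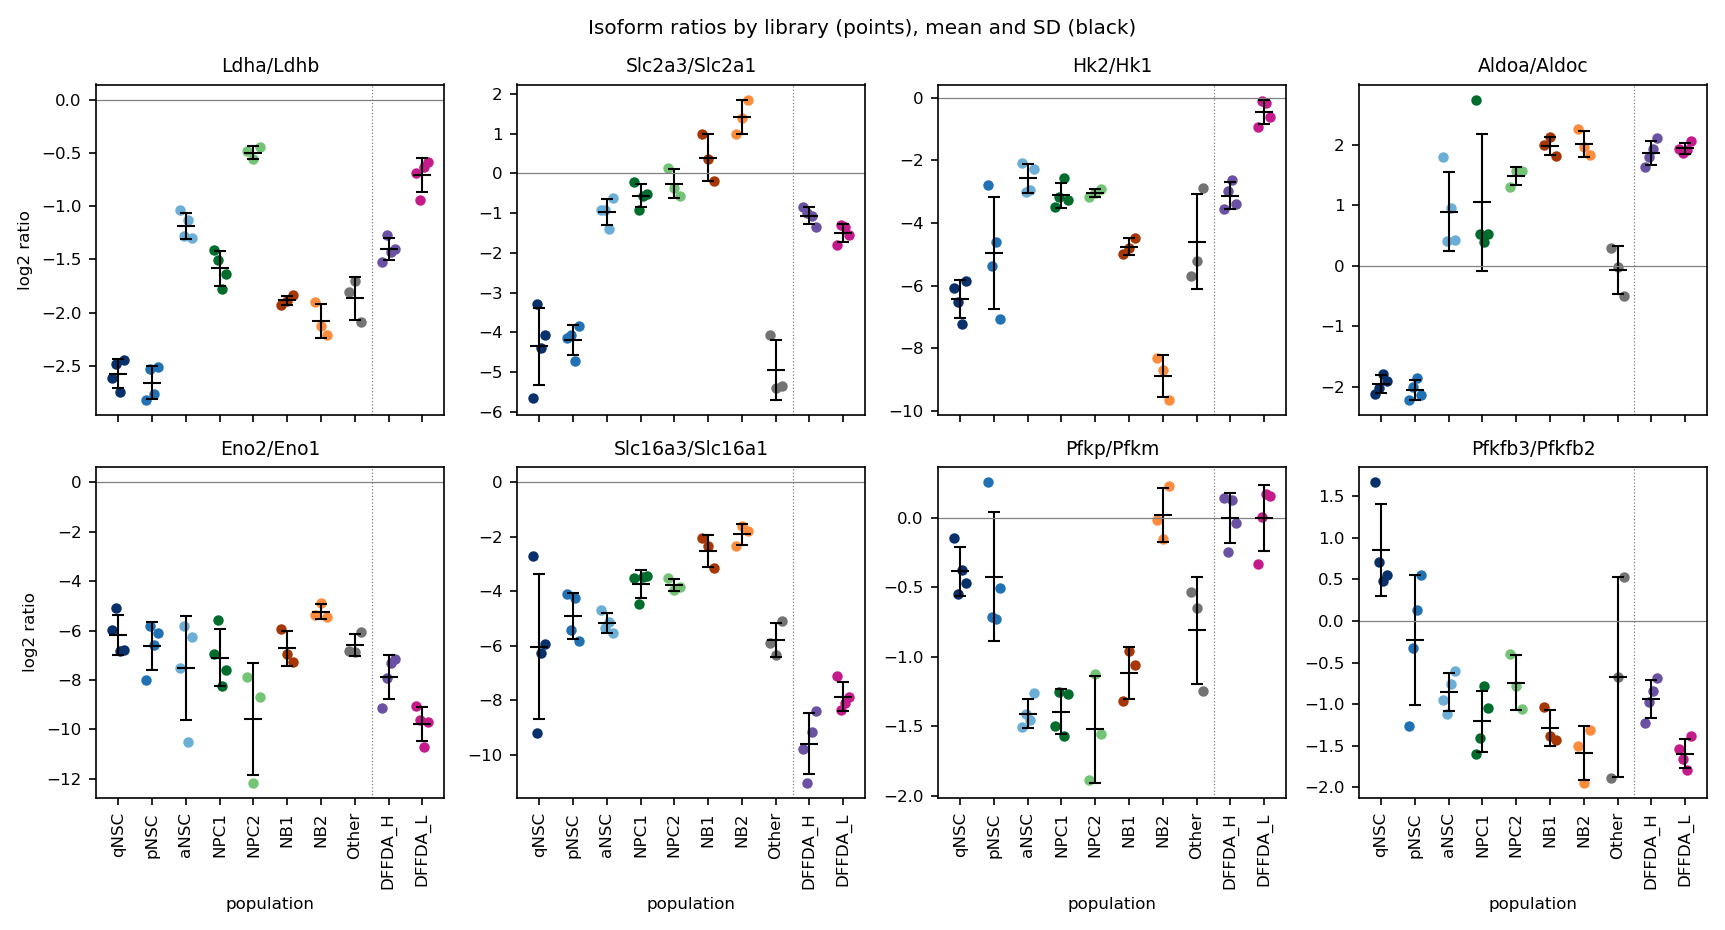
Each panel shows the log2 ratio of the deposited levels of 1 isoform pair, not divided by length, in every library (points), with the mean and SD of each population in black and a grey line at a ratio of 1. Aldoa/Aldoc lies below the line in qNSC and pNSC and above it in aNSC, Slc2a3/Slc2a1 climbs above it only in part of NPC2 and NB1 and in NB2, and Hk2/Hk1 is lowest in NB2 at -9.63 to -8.31.

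In the population labelled Other, the transporter gene Slc2a1 was high. Set against the average of the 7 other fresh populations, each counted once, 17 of the 34 rows passed, 7 higher and 10 lower (54.3% of all genes passed, 25.9% higher and 28.4% lower). Slc2a1, with 8.11, 9.28 and 8.56 in Other, was above every other fresh library (log2 change 3.14, standard error 0.17, adjusted p 1.33e-12), an 8.79-fold higher level. Pcx, with 5.93, 6.11 and 5.58, was below every other fresh library (log2 change -1.70, standard error 0.19, adjusted p 5.47e-08). The other genes of glucose entry were not higher: Hk1 passed lower (-0.48, adjusted p 0.00677), and Slc2a3 (-0.59, 0.0785) and Hk2 (-0.25, 0.659) did not pass. Slc2a1 and Pcx were the 2 rows of 34 that did not overlap with the other fresh libraries (7.66% of all genes). Pdk4, with 2.17, 1.73 and 1.56 in Other, fell by 2.47 on the log2 scale (adjusted p 2.33e-08), Pdk1, with 1.19, 2.65 and 1.80, by 1.43 (0.00066) and Pdha1, with 6.53, 6.60 and 6.02, by 1.08 (2.34e-08). Mpc2, the partner of Mpc1 in the carrier, was higher by 0.90 (2.06e-05). Aldoc, with 7.38, 8.35 and 8.83, was higher by 1.07 (0.0153), but not without Other replicate 2 (0.072) or 3 (0.167). The second Aldoa row, with 1.75, -0.27 and 0.74, was lower by 1.07 (0.031), and by 1.88 with library weights, but did not pass without Other replicate 2 (0.335) or 3 (0.0879). The calls of Pdhb, Mpc1, Pfkfb2, Slc16a1 and Hk1 also ended without 1 of the Other libraries. GLUT1 is the glucose transporter of brain endothelium, and the 8 endothelial markers summed to 589 to 1584 in Other and to 0.65 to 17.8 in the other fresh libraries. The 5 mural markers found summed to 137 to 1876 in Other and 0.41 to 162 elsewhere, and the 8 neuroblast markers to 6703 to 9699 in Other. Of 8 microglial markers 6 were higher in Other and none lower (median log2 change 2.12), with sums of 337 to 616 in Other and 154 to 572 elsewhere, and of 5 red cell markers 4 were higher and none lower (3.18), with sums of 44.6 to 473 in Other and 0.206 to 100 elsewhere. None of these markers was at the floor throughout Other, and their part in the Slc2a1 level was not tested.

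Most members that differed in culture were higher in the dye-high cells. Between DFFDA_H and DFFDA_L, 31 rows could be tested, since the second Aldoa row, Slc16a3 and Pdk4 did not pass the filter on low values. Of the 31, 18 passed, 15 higher and 3 lower in DFFDA_H (58.1%, against 43.8% of all genes; 48.4% higher, against 21.6%, and 9.68% lower, against 22.3%). In the libraries 14 rows did not overlap (39.0% of all genes). The median log2 change was 0.25 in the set and -0.01 over all genes. The fit of the 8 neurosphere libraries alone gave these values, and a fit of all 36 libraries gave 11 calls: Eno2, Tpi1, Mpc1, Mpc2, Pfkfb3, Slc2a1, Ldhb and Slc16a1 did not pass in it, at adjusted p up to 0.213, while Pdk4, which its filter let in, did (log2 change 2.01, adjusted p 8.4e-05). Pdk4 stood near the lower end of the scale in both, with -0.14, -1.15, 1.02 and -0.16 in DFFDA_H, against -1.66, -2.21, -2.30 and -2.28 in DFFDA_L.

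Hk2 differed most in culture, with 1.56, 2.36, 2.83 and 2.64 in DFFDA_H, against 4.65, 4.71, 4.83 and 4.82 in DFFDA_L (log2 change -2.41, standard error 0.23, adjusted p 6.32e-06). Every DFFDA_H library was lower, by 5.31-fold on average. Pdk2 had 4.76, 4.91, 4.86 and 5.16 in DFFDA_H, against 3.50, 3.09, 3.38 and 3.79 in DFFDA_L (log2 change 1.48, standard error 0.16, adjusted p 1.48e-05). Pdk1 had 4.93, 4.61, 4.96 and 4.47 in DFFDA_H, against 3.44, 3.74, 3.71 and 3.41 in DFFDA_L (log2 change 1.17, standard error 0.15, adjusted p 6.07e-05). Both kinases were higher in all DFFDA_H libraries, while Pdk3 did not pass (0.00, adjusted p 0.983). Eno2 had -0.97, 0.14, 0.75 and 0.99 in DFFDA_H, against -0.67, -1.31, -2.65 and -1.52 in DFFDA_L (log2 change 1.76, standard error 0.49, adjusted p 0.0112), but with values below 0 set to 0 its log2 change was 0.47 (adjusted p 0.11). The transporter gene Slc2a3 had 5.64, 5.50, 5.49 and 5.42 in DFFDA_H, against 4.43, 4.73, 4.58 and 4.71 in DFFDA_L (log2 change 0.90, standard error 0.11, adjusted p 2.74e-05). Slc2a1 (0.47), Pfkp (0.61), Pfkm (0.61), Pfkfb3 (0.52), Gpi1 (0.45), Pgam1 (0.41), Slc16a1 (0.41), Mpc2 (0.39), Mpc1 (0.38), Tpi1 (0.35) and Ldhb (0.25) were higher by less than 1.

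Ldha had 7.83, 8.03, 7.90 and 7.84 in DFFDA_H, against 8.35, 8.34, 8.34 and 8.34 in DFFDA_L, without overlap and with almost no spread in DFFDA_L (log2 change -0.44, standard error 0.07, adjusted p 0.000272). Pcx also passed lower, with 2.74, 3.50, 3.58 and 3.98 in DFFDA_H, against 4.52, 3.61, 4.21 and 4.29 in DFFDA_L (-0.71, adjusted p 0.0359), and its call ended without any 1 of 6 libraries, at up to 0.102 without DFFDA_H replicate 1. The calls of Mpc1 and Ldhb likewise ended without single libraries, at up to 0.127 without DFFDA_H replicate 2 and 0.0742 without DFFDA_L replicate 3. Of the isoform ratios, 4 of 8 did not overlap, against 39.0% of single genes. Ldha/Ldhb was -1.52, -1.27, -1.43 and -1.4 in DFFDA_H, against -0.69, -0.94, -0.63 and -0.58 in DFFDA_L (difference -0.69, exact p 0.0286). Hk2/Hk1 was -3.55, -2.97, -2.61 and -3.38 in DFFDA_H, against -0.93, -0.11, -0.16 and -0.61 in DFFDA_L (-2.68, exact p 0.0286). Slc16a3/Slc16a1 (-1.73, exact p 0.0286) and Pfkfb3/Pfkfb2 (0.66, exact p 0.0286) stood apart as well. Aldoa/Aldoc (exact p 0.486) and Pfkp/Pfkm (exact p 1) overlapped. Cycling markers summed to 329 to 373 in DFFDA_H and 880 to 1063 in DFFDA_L, and ependymal markers to 43.7 to 51.4 in DFFDA_H and 12.5 to 17.0 in DFFDA_L. Of the 8 astroglial markers 6 could be tested, and 4 were higher and none lower in DFFDA_H, with a median log2 change of 1.3. These 8 summed to 1431 to 1754 in DFFDA_H and 1186 to 1556 in DFFDA_L, and Aqp4, the water channel of astrocytes, had a log2 level of 6.10 ± 0.13 in DFFDA_H and 1.93 ± 0.51 in DFFDA_L (SD, n = 4 each). Their part in the differences was not tested.

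The niche and culture contrasts share no library, so their calls can be set side by side. Of the 31 rows tested in both, 26 passed in aNSC against qNSC and 18 in DFFDA_H against DFFDA_L, and 14 passed in both, which is 53.8% of the niche calls and 77.8% of the culture calls. Over the 14586 genes tested in both, these shares were 50.3% and 74%, and 83.9% of the 31 rows passed in the niche to begin with, so the overlap was near the background. In 13 of the 14 (92.9%, against 87.6% of all genes called in both) the direction was the same when DFFDA_L is set beside aNSC and DFFDA_H beside qNSC: Slc2a1, Gpi1, Pfkm, Pfkp, Pfkfb3, Tpi1, Eno2, Ldhb, Pdk1, Pdk2, Mpc1 and Mpc2 were lower in aNSC than in qNSC and higher in DFFDA_H than in DFFDA_L, and Hk2 was the reverse. Slc2a3 was higher in aNSC and also higher in DFFDA_H.

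Sizes differed more than directions. The difference of the 2 contrasts, (DFFDA_L minus DFFDA_H) minus (aNSC minus qNSC), was fitted over all 36 libraries, a test added after the data were seen. By it 22 of 34 rows passed, 17 of them positive and 5 negative (64.7%, against 42.3% of all genes, of which 18.3% were positive and 24.0% negative). Aldoc differed by 5.56 (standard error 0.53, adjusted p 5.38e-10): it changed by -5.51 in the niche, while its log2 level was 7.45 ± 0.15 in DFFDA_H and 7.50 ± 0.12 in DFFDA_L (SD, n = 4 each). Pfkp (3.13, adjusted p 3.23e-12), Aldoa (2.79, 1.08e-12), Eno1 (2.53, 2.62e-14) and Slc2a1 (2.03, 1.55e-07) differed in the same sense. For Hk2 the difference did not pass (0.13, adjusted p 0.901, with a standard error of 0.67), nor for Pdk1 (-0.19, 0.786) or Ldha (0.12, 0.639). Unequal changes were not particular to the set. The difference passed for all 6 cycling markers, negative (median -3.74), and all 8 astroglial markers, positive (median 3.95). Cycling markers had a median log2 change of 5.37 in aNSC against qNSC and of -1.45 in DFFDA_H against DFFDA_L.

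Neurosphere cells differed from the fresh cells in both directions. Between DFFDA_L and aNSC 23 rows passed, 12 higher and 11 lower in DFFDA_L (67.6%, against 70.1% of all genes, a share near the background). By direction, 31.4% of all genes were higher and 38.7% lower in DFFDA_L, and 24 rows of the set did not overlap between the libraries, against 73.3% of all genes. The median log2 change was 0.02 in the set and -0.19 over all genes. Between DFFDA_H and qNSC 27 passed, 6 higher and 21 lower (79.4%, against 74.2% of all genes). Split by direction, 37.2% of all genes were higher and 36.9% lower in DFFDA_H, and 26 rows of the set did not overlap between the libraries, against 67.4% of all genes. Pdk4 was low in culture, with -1.66, -2.21, -2.30 and -2.28 in DFFDA_L, against the aNSC values above (log2 change -7.00, standard error 0.34, adjusted p 5.79e-18; -4.63 with a pseudocount of 1), and with -0.14, -1.15, 1.02 and -0.16 in DFFDA_H (-7.10 against qNSC). Pcx, which refills the citric acid cycle, was low as well, with 4.52, 3.61, 4.21 and 4.29 in DFFDA_L, against 7.79, 8.09, 7.76 and 8.21 in aNSC (log2 change -3.80, standard error 0.24, adjusted p 2.46e-15), and with 2.74, 3.50, 3.58 and 3.98 in DFFDA_H, against 7.91, 7.81, 7.55 and 7.66 in qNSC (-4.28, adjusted p 8.62e-17). Both genes stood below every library of the fresh population compared. The second Aldoa row had -4.60, -3.90, -3.96 and -4.22 in DFFDA_L and -5.06, -4.51, -5.06 and -3.02 in DFFDA_H, with 2 DFFDA_H libraries at the floor. Its log2 change in DFFDA_L against aNSC was -6.53, and -2.54 with a pseudocount of 1. In DFFDA_H against qNSC it was -3.89, -0.77 with the pseudocount, and it did not pass with values below 0 set to 0 (adjusted p 0.578). Slc16a3 was lower in DFFDA_L, at -0.55, -1.48, -1.47 and -1.08, against 1.68, 1.05, 1.04 and 0.71 in aNSC (-2.26, adjusted p 0.00571; -1.12 with values below 0 set to 0 and -1.13 with a pseudocount of 1), and in DFFDA_H, at -2.59, -4.01, -2.03 and -1.24 (-2.50, 0.00238; -1.46 without qNSC replicate 1, -3.50 without qNSC replicate 2, and 0.109 with values below 0 set to 0).

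Aldoa and Eno1 were higher in the dye-low cells than in aNSC. Aldoa had 9.55, 9.41, 9.40 and 9.42 in DFFDA_L (log2 change 1.99, standard error 0.14, adjusted p 3.38e-14), Eno1 had 8.38, 8.33, 8.05 and 8.18 (log2 change 1.07, standard error 0.11, adjusted p 1.29e-10) and Mpc1 had 5.92, 6.13, 6.49 and 6.66 (log2 change 1.07, standard error 0.16, adjusted p 6.71e-07). No DFFDA_L library overlapped with aNSC in these 3. Hk2 was higher, by 1.5 (adjusted p 0.00539), and Pdk2, Pgam1, Pfkl and Pfkfb4 were lower by over 1: Pgam1 had 4.46, 4.58, 4.37 and 4.66 in DFFDA_L and 6.07, 5.95, 6.18 and 6.03 in aNSC (-1.54), Pfkl 4.48, 4.81, 4.51 and 5.07 (-1.31), Pfkfb4 1.76, 1.78, 2.24 and 1.25 (-1.27) and Pdk2 changed by -2.22. Ldha, Slc16a1, Pdha1, Pfkfb2, Slc2a1, Pfkp, Aldoc and Mpc2 were higher by 0.35 to 0.96, and Pfkm, Gapdh and Hk1 lower, with log2 changes of -0.73 to -0.62. The calls of Aldoc (0.187 without aNSC replicate 1 and 0.0529 without DFFDA_L replicate 1), Slc16a1 (up to 0.0848 without DFFDA_L replicate 2) and Gapdh (up to 0.0983 without DFFDA_L replicate 2) ended without single libraries.

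DFFDA_H against qNSC differed by over 1 on the log2 scale in 22 of its 27 calls. The falls were those of Aldoc (-4.62), Pfkfb4 (-3.80), Pdk2 (-3.51), Eno2 (-3.18; -2.38 with a pseudocount of 1), Pfkm (-2.83), Pfkp (-2.45), Pfkl (-2.35), Hk1 (-1.91), Gapdh (-1.62), Eno1 (-1.47), Slc2a1 (-1.42), Pgam1 (-1.39), Tpi1 (-1.28) and Gpi1 (-1.24), beside those of Pdk4, Pcx, Slc16a3 and the second Aldoa row. Among the genes of glucose entry, Slc2a1 and Hk1 fell, as did Gpi1, and all 4 DFFDA_H libraries of these lay below every qNSC library. Slc2a1 had 6.49, 6.49, 6.56 and 6.77, Hk1 5.11, 5.33, 5.44 and 6.02 and Gpi1 7.29, 7.24, 7.43 and 7.59 in DFFDA_H. Aldoc had 7.60, 7.52, 7.42 and 7.26, Tpi1 7.06, 6.97, 6.99 and 7.03, Gapdh 3.94, 4.91, 4.85 and 4.88 and Eno1 8.16, 8.07, 8.07 and 8.14 in DFFDA_H. Pgam1 had 5.03, 4.90, 4.94 and 4.84 in DFFDA_H, against 6.28, 6.32, 6.37 and 6.29 in qNSC. The 3 phosphofructokinase genes and Pfkfb4 stood below qNSC in every library. In DFFDA_H, Pfkp had 5.53, 5.24, 5.42 and 5.58, Pfkfb4 had 1.52, 1.31, 1.3 and 1.29, Pfkl 4.84, 4.80, 4.78 and 5.05 and Pfkm 5.38, 5.48, 5.29 and 5.62. Higher by over 1 were Slc2a3 (log2 change 1.87, standard error 0.29, adjusted p 8.41e-07), Hk2 (1.38, adjusted p 0.0097), Pfkfb2, with 6.27, 6.15, 6.04 and 6.04 (1.22, 6.46e-07), and Slc16a1, with 7.19, 7.01, 7.14 and 7.14 in DFFDA_H and 5.85, 6.2, 6.13 and 6.03 in qNSC (1.07, 2.13e-06). Mpc1, Mpc2, Pdk1 and Pdha1 did not pass, at -0.20, -0.02, -0.13 and -0.10.

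Lists of neighbouring pathways were counted in the same way. In aNSC against qNSC 35.3% of all genes were higher and 27.1% lower. The lists are small, and those of other glycolytic isoforms and of the hypoxia response stood near these shares. In aNSC against qNSC, 6 of 7 glycogen genes fell and none rose, with a median log2 change of -2.53; among them were Ppp1r3c, which targets the phosphatase that activates glycogen synthase (-5.34), and the phosphorylase gene Pygl (-3.63). Of 19 citric acid cycle genes, 7 fell and 1 rose, with a median of -0.17, and of 7 pentose phosphate genes 2 rose and none fell. Of 13 other glycolytic isoforms and regulators, 4 rose and 4 fell; the fallen included Bsg, the chaperone of the lactate transporters (-1.09), and the risen Slc2a4, the insulin-responsive transporter GLUT4 (1.97). Of 12 hypoxia response genes 3 rose and 5 fell, with Hif1a higher (1.00) and Epas1, which encodes its relative HIF-2 alpha, lower (-5.79). In NB2 against aNSC, 15 of 19 citric acid cycle genes fell and none rose, with a median of -0.64. Of all genes 27.1% were lower and 23.6% higher there. The succinyl-CoA ligase subunit gene Suclg2 changed by -3.54. In DFFDA_H against DFFDA_L, 4 cycle genes rose and 1 fell, and of the hypoxia response genes 6 rose, among them Bnip3 (1.01), and 1 fell. In that comparison 21.6% of all genes were higher and 22.3% lower. Pdp1, the phosphatase that reactivates pyruvate dehydrogenase, was higher in aNSC than in qNSC (0.71), in NB2 than in aNSC (1.12) and in DFFDA_H than in DFFDA_L (1.18).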

How the data were processed

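RNA of 36 samples was sequenced, per the labels, from poly(A) libraries made with the SMARTer Ultra Low and Nextera XT kits. Per the submitters' processing notes, whose entries give no roles, HISAT2, featureCounts, limma, Trimmomatic, cutadapt and FastQC were used, with build GRCm38 (mm10). As the authors deposited them, the values are log2 levels of 19909 genes in 1 table, whose scale the sources used here do not state. The linear values summed to 987637 to 987910 per library, and library medians ranged over 3.53 to 3.56, as log2 CPM values equalised across libraries would. Read depth is unknown, and the scaling fixes the distribution of values in each library. Another 1770 blank lines were dropped.

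The members and gene lists were chosen with earlier results of these data known. Genes were kept at a log2 level of at least 0 in 3 or more libraries of 1 group. limma 3.58.1 (R 4.3.3, trend and robust settings) was fitted to the 28 fresh libraries (17788 genes), the 8 neurosphere libraries (15956) and all 36 (19158), with Benjamini-Hochberg adjustment over all genes tested and a threshold of 0.05. The fits were tested on simulated data. Levels per kilobase used the exon lengths of GENCODE M21, and copies were searched with BLAST 2.17.0. Values in every library were given for members that passed in the comparison described with an absolute log2 change of at least 1 and for isoform pairs; other members are given by changes and counts. Alternatives were the filter, a pseudocount of 1, centring, library weights, the replicate block, fits of the compared groups alone and leaving out each library.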

Additional observations from a re-analysis of the deposited data

Results flagged for a closer look

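Of 204 sets of 4 libraries examined, each 1 row in 1 population, 14 held a library whose gap to its nearest neighbour as a share of the whole range exceeded Dixon's critical value for 4 values. Chance gives about 1 in 20 such sets. Log2 levels follow, each with the range of the other 3 libraries. Single libraries stood apart for Hk1 in qNSC replicate 1, at 7.04 against 7.48 to 7.53, and Gpi1 in aNSC replicate 2, at 6.89 against 6.79 to 6.81. The next were Pfkm in NPC1 replicate 2, at 5.73 against 5.62 to 5.63, and Pfkfb4 in DFFDA_H replicate 1, at 1.52 against 1.29 to 1.31. Others were Aldoa in qNSC replicate 1, at 10.18 against 10.08 to 10.10, and Aldoa in DFFDA_L replicate 1, at 9.55 against 9.40 to 9.42. Further ones were Aldoc in NPC1 replicate 1, at 3.65 against 6.14 to 6.42, and Gapdh in aNSC replicate 1, at 5.50 against 5.16 to 5.18. Apart too were Gapdh in DFFDA_H replicate 1, at 3.94 against 4.85 to 4.91, and Pgk1 in aNSC replicate 1, at 6.71 against 6.61 to 6.61. There followed Pkm in aNSC replicate 1, at 9.77 against 9.90 to 9.92, and Ldha in NPC1 replicate 2, at 7.40 against 7.03 to 7.07. The last were Pdk4 in aNSC replicate 1, at 4.39 against 5.02 to 5.10, and Pdk4 in DFFDA_L replicate 1, at -1.66 against -2.30 to -2.21. aNSC replicate 1 stood apart in 4 of these sets, for Gapdh, Pgk1, Pkm and Pdk4.

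The change of DFFDA_L minus DFFDA_H in neurospheres differed from that of aNSC minus qNSC in fresh tissue for 22 of the 34 table rows. The difference itself was tested by limma, and all 22 passed an adjusted p under 0.05 over all genes. On the log2 scale, each gene is given with the difference, then its change in culture and its change in the niche. The difference was above 0 for Slc2a1 2.03 (culture -0.47, niche -2.50), Hk1 1.29 (culture -0.27, niche -1.56), Gpi1 1.34 (culture -0.45, niche -1.80) and Pfkl 1.04 (culture -0.15, niche -1.19). It was likewise positive for Pfkm 2.1 (culture -0.61, niche -2.72), Pfkp 3.13 (culture -0.61, niche -3.74), Pfkfb4 2.53 (culture 0.40, niche -2.13) and Aldoa 2.79 (culture 0.13, niche -2.66). Positive values were also found for Aldoc 5.56 (culture 0.06, niche -5.51), Tpi1 1.38 (culture -0.35, niche -1.73), Gapdh 1.00 (culture -0.01, niche -1.01) and Eno1 2.53 (culture 0.12, niche -2.41). Next came Ldhb 0.81 (culture -0.25, niche -1.06), Pdk2 1.29 (culture -1.48, niche -2.77), Pdha1 0.56 (culture 0.19, niche -0.37) and Mpc1 1.27 (culture -0.38, niche -1.65). Last came Mpc2 0.98 (culture -0.39, niche -1.37). It was negative for Slc2a3 -1.78 (culture -0.90, niche 0.89), Pfkfb2 -0.66 (culture 0.14, niche 0.81), the second Aldoa row -2.64 (culture 0.24, niche 2.88) and Pkm -0.79 (culture -0.09, niche 0.71). Also negative was Slc16a1 -0.65 (culture -0.41, niche 0.24).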

How the results depend on the processing

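No value that passed in the reported fit or in an alternative changed direction between the 2. Changes of direction in values that passed in neither were not counted. Of 222 called member values, 166 held in every alternative, and 63 of 217 uncalled ones passed in some. Between pNSC and qNSC, 9 passed, but 5 with library weights, 2 with the compared groups fitted alone and 3 to 12 when single libraries were left out (3 without pNSC replicate 1). Between NPC1 and aNSC, 12 passed and 6 to 12 without single libraries. Between NPC2 and NPC1, 0 passed, but 6 with library weights, 1 each with genes of a mean of at least 4, values below 0 set to 0, a pseudocount of 1, the replicate block and the compared groups alone, and 0 to 1 without single libraries (1 without NPC1 replicate 1 or 2). Between NB1 and NPC2, 5 passed, but 18 with library weights, 11 with the compared groups alone and 3 to 6 without single libraries. Between DFFDA_H and DFFDA_L, 18 passed, but 11 with all 36 libraries in one fit and 14 to 17 without single libraries. The cause was not tested. Counts without single libraries were 20 to 26 for aNSC against pNSC, 26 to 27 for aNSC against qNSC, 12 to 14 for NB2 against NB1, 21 to 22 for NB2 against aNSC, 13 to 20 for Other, 21 to 23 for DFFDA_L against aNSC, 27 to 29 for DFFDA_H against qNSC and 20 to 22 for the difference of contrasts.

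Labels number the replicates alike, but same-numbered samples did not deviate together in every pair (correlations of -0.31 to 0.24), which does not meet the rule set for pairing, and the fits carry no block. In pNSC against qNSC and in aNSC against pNSC all 8 libraries correlated best with their own number, and 6 of 8 did in aNSC against qNSC, with positive same-number correlations in all 3, a hint of pairing from the data and not from the design. With the replicate block, 10 members passed for pNSC against qNSC, 23 for aNSC against pNSC, 27 for aNSC against qNSC, 12 for NPC1 against aNSC, 1 for NPC2 against NPC1, 5 for NB1 against NPC2, 17 for NB2 against NB1, 21 for NB2 against aNSC, 18 for Other, 18 for DFFDA_H against DFFDA_L, 23 for DFFDA_L against aNSC, 29 for DFFDA_H against qNSC and 22 for the difference of contrasts. Another setting moved the share of higher calls among all genes by over 10 percentage points in 3 comparisons, of which aNSC against pNSC is given above. Of the calls of pNSC against qNSC, 63.8% were higher in pNSC, but 53.2% with values below 0 set to 0, 52.7% with a pseudocount of 1 and 78.9% with library weights, where the members split into 0 and 8, 1 and 8, and 0 and 5, higher and lower. For NPC2 against NPC1 the share was 15.1%, but 38.1% with library weights and 27.9% with the compared groups alone. Centring on log ratios, chosen after the data were seen, took the share of higher calls to 49.9% for aNSC against qNSC (56.6% as reported) and to 51.5% for the difference of contrasts (43.3%), and gave a median change over all genes of -0.02 in DFFDA_L against aNSC, where the reported fit gave -0.19. Depth is unknown, and low values such as those of Hk2 in NB2 are the least certain. For Other, the fit of the compared groups alone is the fit reported.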
